A study of Homo sapiens with 23 samples.

Results

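The results describe where the polysomal RNA response to INK128 differed between a pair of human diffuse large B-cell lymphoma lines. SUDHL-2 stands for the activated B-cell-like (ABC) type of this lymphoma and SUDHL-4 for the germinal centre B-cell-like (GCB) type, each by 1 line, so that type and line cannot be told apart. The 12 arrays used here, of 23 in the series, held 3 arrays each of SUDHL-2 cells given 40 nM INK128, SUDHL-2 cells given 0.01% DMSO, SUDHL-4 cells given 40 nM INK128 and SUDHL-4 cells given 0.01% DMSO, all for 24 h. RNA from the heavy polysome fractions of sucrose gradients was pooled and hybridised to Illumina HT-12 BeadChips, with 1 intensity per probe and array. The other 11 arrays held the same lines given 20 mM EtOH or water for 48 h.

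The quantity studied was the line difference, which is the SUDHL-2 response (INK128 minus DMSO) minus the SUDHL-4 response, on a log2 scale. A value above 0 says that INK128 moved a gene upward, or less far downward, in SUDHL-2 relative to SUDHL-4, and a value below 0 says the opposite. A probe entered when, in each line, all 3 arrays of the INK128 group or of the DMSO group detected it, with a detection p of no more than 0.02. Of 47231 probes with values, 12716 met this rule. Probes of a gene were averaged, which gave 10391 entries, 7901 of them with a gene symbol and 2490 single probes without one, against 37164 entries over all probes with values. The rule used detection and not the size of any response.

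INK128 is an inhibitor of the kinase site of mTOR, and therefore acts on both mTOR complexes. mTORC1 drives cap-dependent translation through the 4E-BP proteins and S6 kinase, and mTORC2 phosphorylates AKT, which keeps the FOXO transcription factors out of the nucleus. ABC-type lymphoma cells are known for active NF-kB signaling, and GCB-type cells keep much of the program of germinal centre B cells. A polysomal signal follows both the amount of an mRNA and the share of it on heavy polysomes. Only polysomal RNA was arrayed, so transcript level and translation cannot be told apart from these arrays (the study's separate measurements of total mRNA for a few genes are not used here), and a loss of polysomes shared by all mRNAs is not visible after normalization.

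The arrays carried 14699 to 17098 detected probes, with a mean log2 signal of 8.58 to 9.65, the highest on both counts being SUDHL-2 DMSO replicate 1. Correlations between replicates ran from 0.947 to 0.996. The median within-group SD was 0.24 log2 units in SUDHL-2 and 0.17 in SUDHL-4. Within groups, 62.1% of the variance of the entries lay on a single component, and the mean log2 signal of the arrays had a line difference of its own of -0.23. With mean signal as a covariate, chosen after seeing the data, 983 entries were called, and the part of brightness in single results was not tested. The ABC marker list had 17 or 18 of its 24 genes on the array detected throughout in the SUDHL-2 groups and 9 in the SUDHL-4 groups. The GCB list had 15 or 16 in the SUDHL-2 groups and 21 in the SUDHL-4 groups. B-cell markers were detected in both lines, 10 or 11 of 14 in the SUDHL-2 groups and 12 in the SUDHL-4 groups, whereas at most 2 of 10 T-cell markers and 3 of 10 myeloid markers were. The level of the B-cell markers was lower in SUDHL-2. Over the 11 tested, the median DMSO difference, SUDHL-2 minus SUDHL-4, was -2.33 log2 units.

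The line difference passed an adjusted p of 0.05 (limma, Benjamini-Hochberg over 10391 entries) for 337 entries, 3.24% of those tested. Of these, 190 lay above 0 (1.83%) and 147 below 0 (1.41%), and 255 carried a symbol. The balance was not stable: with 1 array left out, 38.8% to 64.2% of the calls lay above 0, and in 9 of the 12 fits more lay below 0. At an unadjusted p under 0.05 there were 2050. The median line difference over all entries was -0.00066, the median standard error was 0.25, and the smallest called difference was 0.70 in size. The count rested on the set of arrays, since it lay between 55, without SUDHL-4 DMSO replicate 3, and 958, without SUDHL-2 INK128 replicate 1. With each of the 12 arrays left out in turn, 48 entries were called every time, 18 above 0 and 30 below 0, and all 337 kept their sign in each of these fits.

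Most called differences came with a larger response in SUDHL-4. The SUDHL-4 response was the larger in size for 267 of the 337 (79.2%), against 58.1% of all tested entries. Against their own DMSO arrays, 215 entries rose (2.07%) and 152 fell (1.46%) in SUDHL-2, whereas 961 rose (9.25%) and 937 fell (9.02%) in SUDHL-4. An entry called in SUDHL-4 alone was usually not shown to differ between the lines: of 1739 such entries, 266 had a called line difference, and of the 208 called in SUDHL-2 alone, 29 had one. Among the 190 called above 0, 153 fell in SUDHL-4 with no call in SUDHL-2 and 11 rose in SUDHL-2 with no call in SUDHL-4. Among the 147 called below 0, 113 rose in SUDHL-4 alone and 18 fell in SUDHL-2 alone. Across entries, which are not independent replicates, the responses of the lines had a Pearson correlation of 0.26.

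**Figure D1:**
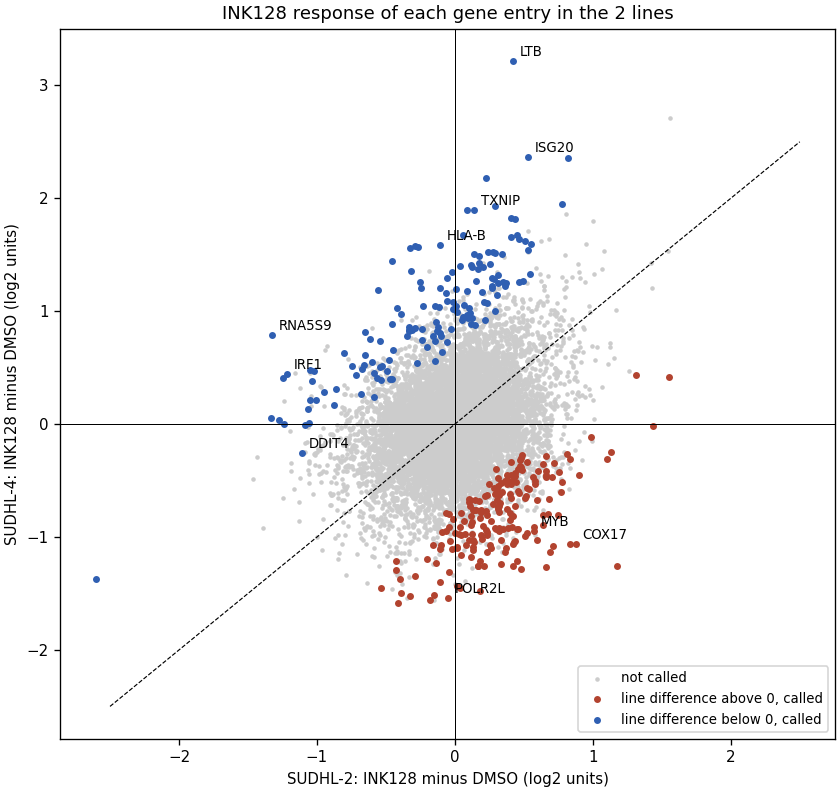
Response of each of the 10391 entries to INK128, as INK128 minus DMSO in log2 units, in SUDHL-2 (horizontal axis) and SUDHL-4 (vertical axis). Grey points were not called, red points are the 190 entries called with a line difference above 0 and blue points the 147 called below 0; the dashed line marks equal responses, and the called points lie mostly near 0 on the SUDHL-2 axis and far from 0 on the SUDHL-4 axis.

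LTB had the largest line difference below 0. The gene, which encodes the membrane partner of lymphotoxin alpha, had values of -1.01, -0.65 and -0.15 log2 units in SUDHL-2 INK128, against -1.09, -0.93 and -1.07 in SUDHL-2 DMSO. In SUDHL-4 it had 3.85, 3.94 and 3.47 with INK128, against 0.31, 0.83 and 0.49 with DMSO. Here 0 is the mean of the kept probes on an array. The SUDHL-4 groups were far apart, while the SUDHL-2 groups lay side by side at a low level. The response was 0.42 ± 0.21 (SE) in SUDHL-2, not past the threshold, and 3.21 ± 0.21 in SUDHL-4, which gave a line difference of -2.79 ± 0.30 (adjusted p = 0.000926). Both of its probes gave it, at -3.09 and -2.49.

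The promoters of 7 named genes, 5 below 0 and 2 above 0, are shown as examples of the motifs counted next, and were picked because a script found a motif in them. Each stretch runs 5′ to 3′ on the gene's own strand upstream of the first start listed by RefSeq (GRCh38.p14), and capitals mark the match on either strand: GTAAACA (forkhead type) in LTB, TXNIP and MYB, GAAANNGAA (interferon regulatory factor type) in ISG20 and PIK3IP1, GGGNNTTCC (NF-kB type) in HLA-B, and 2 overlapping copies of GCATGCGC (NRF1 type), on opposite strands, in COX17.
LTB, chr6:31582476-31582575, minus strand: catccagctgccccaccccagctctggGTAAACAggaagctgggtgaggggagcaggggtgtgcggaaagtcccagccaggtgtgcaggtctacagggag
TXNIP, chr1:145996630-145996729, minus strand: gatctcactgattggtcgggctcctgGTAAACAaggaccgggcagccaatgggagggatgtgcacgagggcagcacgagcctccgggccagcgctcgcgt
ISG20, chr15:88638896-88638995, plus strand: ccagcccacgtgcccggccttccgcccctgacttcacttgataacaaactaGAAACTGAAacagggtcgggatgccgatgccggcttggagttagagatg
PIK3IP1, chr22:31292635-31292734, minus strand: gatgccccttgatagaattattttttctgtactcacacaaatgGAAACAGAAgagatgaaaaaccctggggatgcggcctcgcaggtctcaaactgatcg
HLA-B, chr6:31357280-31357379, minus strand: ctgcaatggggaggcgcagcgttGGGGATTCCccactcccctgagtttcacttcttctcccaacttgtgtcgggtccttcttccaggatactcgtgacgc
COX17, chr3:119677457-119677556, minus strand: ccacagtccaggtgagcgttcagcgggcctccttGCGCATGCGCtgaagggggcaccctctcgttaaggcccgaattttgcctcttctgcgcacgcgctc
MYB, chr6:135181248-135181307, plus strand: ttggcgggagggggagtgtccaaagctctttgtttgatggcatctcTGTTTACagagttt

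A promoter entry was found for 6540 tested genes, 125 of them called above 0 and 76 called below 0, and the 250 bases before the start were searched on both strands. GTAAACA stood in 0.80% of the genes called above 0, 5.26% of those called below 0 (4 genes) and 1.85% of all tested. GAAANNGAA stood in 4.8%, 10.5% (8 genes) and 5.66%. GGGNNTTCC stood in 3.2%, 3.95% and 7.40%, and GCATGCGC in 8.8%, 5.26% and 5.70%. CCGGAAG (ETS type) stood in 19.2%, 10.5% and 18.8%, and CCAAT in 43.2%, 31.6% and 37.3%. These shares are descriptions of letters in a window and rest on few genes. A start of C followed by 4 pyrimidines, the pattern of mRNAs whose translation is known to depend most on mTORC1, opened 70.7% of 58 cytosolic ribosomal protein genes, 2.4% of the genes called above 0, 3.95% of those called below 0 and 6.02% of all tested.

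The NF-kB list (the pathway and its known targets) had 26 tested genes, with a median line difference of -0.41. Of these, 6 were called below 0 and 1 above 0, against 1.41% and 1.83% of all entries. In SUDHL-2, 1 of the 26 rose and 5 fell, whereas in SUDHL-4 9 rose and 2 fell. The shares of all entries called higher were 2.07% for SUDHL-2 and 9.25% for SUDHL-4. Those called lower were 1.46% and 9.02%. TNF, the inflammatory cytokine, had -1.22, -1.29 and -1.16 in SUDHL-2 INK128, against 0.10, 0.02 and -0.052 in SUDHL-2 DMSO. It had 0.96, 0.81 and 1.03 in SUDHL-4 INK128, against 0.47, 0.56 and 0.53 in SUDHL-4 DMSO. The groups did not overlap in either line, and TNF fell in SUDHL-2 by 1.25 while it rose in SUDHL-4 by 0.41 (line difference -1.66 ± 0.17, adjusted p = 0.000926). LTA, or lymphotoxin alpha, was at -0.61 ± 0.17 in SUDHL-2, not past the threshold, and rose by 0.76 ± 0.17 in SUDHL-4 (line difference -1.37 ± 0.24, adjusted p = 0.014). CD40, the receptor through which T cells activate B cells, was at -0.099 in SUDHL-2 and rose by 0.78 in SUDHL-4. Its line difference was -0.88, and neither of its probes was called by itself. GADD45B, a stress-response gene detected on 2 of 3 SUDHL-2 INK128 arrays, was at -0.87, and IRF1, the sixth, is given with the interferon genes. PLEK, or pleckstrin, was the member above 0, at 1.05. With each array left out in turn the list had 4 to 7 calls below 0 and 0 or 1 above. It had 5 below 0 and none above without SUDHL-2 DMSO replicate 1.

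Of 22 tested interferon-stimulated genes, 5 were called below 0, against 1.41% of all entries, and none above 0. Their median was -0.33. With 1 array left out, 3 to 6 were called. ISG20, an exonuclease that degrades RNA, had 0.77, 1.03 and 1.71 in SUDHL-2 INK128, against 0.42, 0.82 and 0.68 in SUDHL-2 DMSO, so that these groups overlapped. It had 3.83, 3.86 and 3.43 in SUDHL-4 INK128, against 1.20, 1.44 and 1.38 in SUDHL-4 DMSO, a clear gap. Its line difference was -1.84 ± 0.30 (adjusted p = 0.0107). IRF9, the DNA-binding part of the factor that answers type I interferon, was at -0.56 ± 0.16 in SUDHL-2 and rose by 1.19 ± 0.16 in SUDHL-4 (line difference -1.74 ± 0.23, adjusted p = 0.00329). IRF1 differed by a fall in SUDHL-2. It averaged -0.98 ± 0.26 in SUDHL-2 INK128 and 0.24 ± 0.39 in SUDHL-2 DMSO, and -0.22 ± 0.21 in SUDHL-4 INK128 and -0.66 ± 0.14 in SUDHL-4 DMSO (SD, n = 3 each). The fall in SUDHL-2 was 1.22 (adjusted p = 0.00777), the value in SUDHL-4 was 0.44 (adjusted p = 0.14), and the line difference was -1.66 ± 0.28 (adjusted p = 0.0109). TRIM22 and IRF7 were at -1.20 and -0.87. AIM2, a sensor of cytosolic DNA that is no member of the list, was at -0.46 in SUDHL-2 and rose by 1.44 in SUDHL-4 (line difference -1.898, adjusted p = 0.00981). Its SUDHL-2 INK128 arrays were uneven, at 2.40, 2.48 and 1.52.

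HLA-B, a heavy chain of MHC class I, averaged -0.20 ± 0.32 in SUDHL-2 INK128 and -0.095 ± 0.070 in SUDHL-2 DMSO. It averaged 0.93 ± 0.26 in SUDHL-4 INK128 and -0.65 ± 0.21 in SUDHL-4 DMSO (SD, n = 3 each), and its line difference was -1.69 ± 0.26 (adjusted p = 0.00765). HLA-E was at -1.31 (adjusted p = 0.0297). They were the 2 called of 15 class I and peptide-loading genes, against 1.41% of all entries called below 0. Of the 15, 12 lay below 0, and the median was -0.36. Among 15 MHC class II genes, 14 lay below 0, with a median of -0.45, and HLA-DOA (-0.95) and HLA-DRB3 (-1.10) were called. Neither was called without SUDHL-4 DMSO replicate 1 or 3 or with median centring, and HLA-DRB3 was called in 5 of the 12 fits without 1 array. In SUDHL-2, 2 of the 15 rose and none fell, and in SUDHL-4 10 rose and 1 fell. Rises over all entries made up 2.07% in SUDHL-2 and 9.25% in SUDHL-4. A probe for one HLA gene can bind RNA of its close relatives and alleles, so the values are those of the probe.

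Among the B-cell receptor signaling genes, 8 of 26 were called below 0, against 1.41% of all entries, and none above 0. The median was -0.44, and 21 genes lay below 0. In SUDHL-2, 5 of the 26 rose, and in SUDHL-4 18 did, with no fall in either line. Among all entries the share called higher with INK128 was 2.07% for SUDHL-2, against 9.25% for SUDHL-4. CD79B, the signaling chain of the receptor, averaged -0.58 ± 0.22 in SUDHL-2 INK128 and -0.69 ± 0.013 in SUDHL-2 DMSO, against 5.25 ± 0.30 in SUDHL-4 INK128 and 4.22 ± 0.065 in SUDHL-4 DMSO (SD, n = 3 each). The high line was thus the one in which it rose (line difference -0.93, adjusted p = 0.044), although 1 of its 3 probes, at -0.48, was not called by itself. The phosphatase PTPN6 (-1.37), the tetraspanin CD37 (-1.29), the receptors FCRL2 (-1.16), CD72 (-1.11) and SLAMF6 (-1.003), the kinase BTK (-0.98) and the complement receptor CR2 (-0.79) were the other 7. CD72 was detected on 1 of 3 SUDHL-2 DMSO arrays and CR2 on 2 of 3 SUDHL-4 DMSO arrays. The list had 4 calls below 0 without SUDHL-2 DMSO replicate 1 and none without SUDHL-4 DMSO replicate 3. With each array left out in turn it had 0 to 9. On the DMSO arrays the median difference of the list between SUDHL-2 and SUDHL-4 was -0.50. GCB subtype markers had a median of -0.53 and no call among 16 genes, of which 2 rose in SUDHL-2, against 9 in SUDHL-4. BCL6, the repressor that defines the germinal centre state, was at -0.92 with a 95% interval from -1.58 to -0.27 (adjusted p = 0.111).

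Of 26 tested genes of the list of FOXO targets and growth arrest, 5 rose and none fell in SUDHL-2, and 17 rose and 1 fell in SUDHL-4. Among all entries, calls upward made up 2.07% for SUDHL-2 against 9.25% for SUDHL-4. Calls downward made up 1.46% against 9.02%. The list had 4 calls below 0 and 1 above 0, against 1.41% and 1.83% of all entries. The median line difference was -0.43. TXNIP, which holds back glucose uptake and thioredoxin, had 0.97, 1.11 and 0.86 in SUDHL-2 INK128, against 0.82, 0.74 and 0.95 in SUDHL-2 DMSO. It had 3.99, 3.99 and 3.77 in SUDHL-4 INK128, against 2.12, 2.05 and 1.904 in SUDHL-4 DMSO. The replicates were close in every group, and the line difference was -1.75 ± 0.19 (adjusted p = 0.000926). PIK3IP1, an inhibitor of PI3 kinase, was at 0.28 in SUDHL-2 and rose by 1.52 in SUDHL-4 (line difference -1.25, adjusted p = 0.014). FOXO1 was at 0.53 (adjusted p = 0.0633) in SUDHL-2 and rose by 1.54 in SUDHL-4 (line difference -1.02, adjusted p = 0.0245). GADD45B was the fourth call below 0. With each array left out in turn the list had 1 to 7 calls below 0. SOD2, the mitochondrial superoxide dismutase, went the other way, falling by 1.34 in SUDHL-4 (line difference 1.05, adjusted p = 0.0364). With 1 array left out, SOD2 was called in 2 of the 12 fits, and its probe at 1.08 was not called by itself.

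The remaining genes of the 15 farthest below 0 shared no list. FCGBP, a secreted mucin-like protein, had -2.54, -2.35 and -2.21 in SUDHL-2 INK128 and -2.91, -2.38 and -2.49 in SUDHL-2 DMSO, where it was detected on 1 of 3 arrays. It had -0.25, -0.17 and -0.30 in SUDHL-4 INK128 and -2.31, -2.42 and -2.52 in SUDHL-4 DMSO (line difference -1.95, adjusted p = 0.000964). SUDHL-4 INK128 thus stood alone among the groups. PLEKHA2, which binds phosphoinositides, rose by 1.94 in SUDHL-4 (-1.65). LPP, a focal adhesion protein, rose by 1.68 (-1.62), and NCF1, a subunit of the phagocyte NADPH oxidase, was among the genes that rose in SUDHL-4 (-1.81) where its level was already far above that in SUDHL-2. NCF1 has near-identical pseudogenes that its probe may also detect. The mRNA capping enzyme RNGTT (-1.84) and the serpin SERPINI1 (-1.67) also rose in SUDHL-4. With 1 array left out, RNGTT was called in 5 of the 12 fits and SERPINI1 in 4, whereas FCGBP, PLEKHA2, LPP and NCF1 were called in all 12. The SERPINI1 probe at -1.49 was not called by itself. IL16, a cytokine and the called member of the ABC marker list, was at -1.19 and was detected on 2 of 3 SUDHL-2 DMSO arrays.

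**Figure D2:**
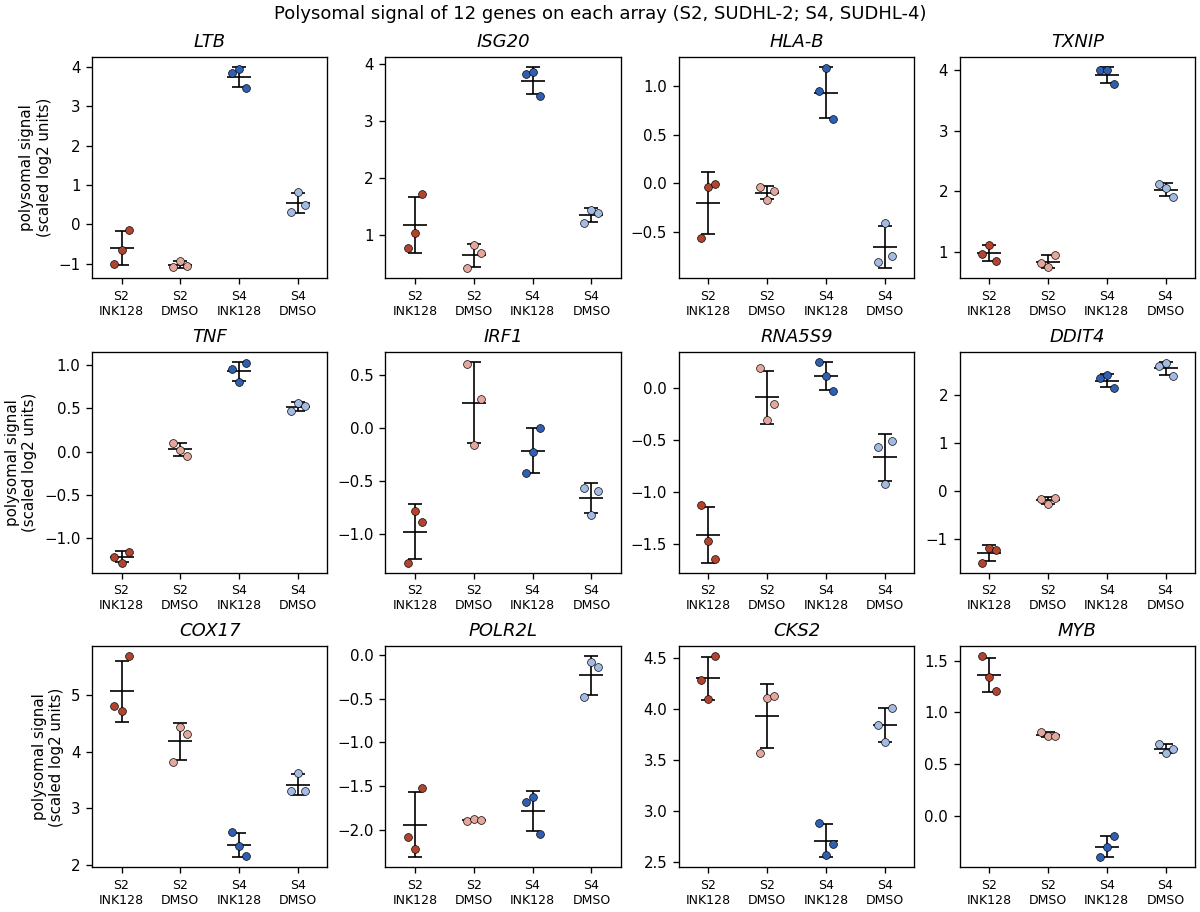
Polysomal signal of 12 genes on each array, in log2 units after each array was centred and scaled, with the groups SUDHL-2 (S2) INK128, SUDHL-2 DMSO, SUDHL-4 (S4) INK128 and SUDHL-4 DMSO from left to right. Points are arrays, long bars the mean of 3 and whiskers the SD; LTB, ISG20 and TXNIP are high in SUDHL-4 INK128 alone, TNF, IRF1 and DDIT4 are lowest in SUDHL-2 INK128, and COX17, CKS2 and MYB are lowest in SUDHL-4 INK128.

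COX17 had the largest line difference above 0 among genes with a symbol. The gene, which encodes the copper chaperone for cytochrome c oxidase, had 4.80, 4.71 and 5.68 in SUDHL-2 INK128, against 3.81, 4.43 and 4.31 in SUDHL-2 DMSO. In SUDHL-4 it had 2.59, 2.33 and 2.15 with INK128, against 3.31, 3.63 and 3.30 with DMSO. The groups did not overlap in either line, but the SUDHL-2 value of 0.88 ± 0.24 did not pass its own test (adjusted p = 0.0614), while the fall in SUDHL-4 by 1.06 did (adjusted p = 0.00903). The line difference was 1.93 ± 0.34 (adjusted p = 0.014). COA4, an assembly factor of the same oxidase (1.68), the copper chaperone ATOX1 (1.80), the metallothionein MT1X (1.63) and glutaredoxin GLRX (1.76) stood beside it, and each of them fell in SUDHL-4. They were taken from the genes with the largest differences above 0 and were not counted as a list. With 1 array left out, COX17 and GLRX were called in all 12 fits, ATOX1 in 4, and COA4 and MT1X in 1 each. For ATOX1 and COA4, SUDHL-2 INK128 replicate 3 was the highest array of its group, at 3.34 and 1.04.

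Of 66 tested subunits of the respiratory chain and ATP synthase, 61 lay above 0, and the median line difference was 0.71, from a median response of 0.27 in SUDHL-2 and -0.47 in SUDHL-4. No member rose or fell past the threshold in SUDHL-2, whereas none rose and 18 fell in SUDHL-4, where 9.02% of all entries fell. The calls were NDUFA3 (1.47), COX7B (1.25), UQCR10 (1.19) and NDUFA6 (0.85), which belong to complexes I, III and IV of the chain. They were 4 of 66, against 1.83% of all entries called above 0. The probes of UQCR10 ran from 0.80 to 1.84, and none of them was called by itself. COX7B had 4.19, 3.92 and 3.93 in SUDHL-2 INK128, against 3.71, 4.12 and 3.81 in SUDHL-2 DMSO, and 1.86, 1.73 and 2.27 in SUDHL-4 INK128, against 2.99, 3.31 and 2.91 in SUDHL-4 DMSO. None of the 66 was called without SUDHL-2 DMSO replicate 1 or 3, SUDHL-4 INK128 replicate 1 or 2, or SUDHL-4 DMSO replicate 2 or 3. Without each array in turn the median stayed between 0.56 and 0.83 while the calls lay between 0 and 19. Mitochondrial ribosomal proteins had 7 of 74 called above 0 and none below 0, with a median of 0.33. They were MRPL14 (1.23), MRPL33 (1.21), MRPL55 (1.17), MRPS17 (0.99), MRPL52 (0.93), MRPL18 (0.83) and MRPS21 (0.78). Neither probe of MRPS21 was called by itself. In SUDHL-2 none of the 74 fell, and in SUDHL-4 25 did, again against 9.02% of all entries. The list had 1 call without SUDHL-2 DMSO replicate 1 and none without SUDHL-4 INK128 replicate 2 or SUDHL-4 DMSO replicate 3. Over all fits without 1 array it had 0 to 12, with a median of 0.26 to 0.41.

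Other genes called above 0 fell in SUDHL-4 with no call in SUDHL-2. PHPT1, a phosphohistidine phosphatase, had a line difference of 1.897 (adjusted p = 0.014), the G-protein subunit GNG5 of 1.82 (adjusted p = 0.00428), and CCDC167, a short membrane protein, of 1.92 (adjusted p = 0.0355). POLR2L, a subunit shared by the nuclear RNA polymerases, averaged -1.94 ± 0.37 in SUDHL-2 INK128 and -1.89 ± 0.011 in SUDHL-2 DMSO, against -1.78 ± 0.23 in SUDHL-4 INK128 and -0.24 ± 0.22 in SUDHL-4 DMSO (SD, n = 3 each). With INK128 the lines thus reached about the same level (line difference 1.49, adjusted p = 0.014). The RNA polymerase III subunits POLR3K (1.42) and POLR3G (0.87) were the 2 called of 22 genes of that list, against 1.83% of all entries above 0. The median of the list was -0.064, and it had 1 to 5 calls with 1 array left out. The probes of POLR3G lay at 1.34 (adjusted p = 0.0269, limma) and 0.39 (adjusted p = 0.381, limma). The chaperone HSPB1 was at 1.47 (adjusted p = 0.0107). CCL4L1, a chemokine detected on 2 of 3 SUDHL-2 DMSO arrays, was at 1.36.

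CKS2 and CKS1B, the small subunits that dock on cyclin-dependent kinases, were the 2 called of 36 mitotic genes, at 1.50 and 1.48. CKS2 had 4.28, 4.10 and 4.51 in SUDHL-2 INK128, against 3.57, 4.10 and 4.12 in SUDHL-2 DMSO, and 2.88, 2.57 and 2.68 in SUDHL-4 INK128, against 3.84, 3.68 and 4.01 in SUDHL-4 DMSO. The lines were level with DMSO and apart with INK128. Of 39 genes of the G1/S transition and DNA replication, 33 lay above 0 (median 0.31), none fell in SUDHL-2, 8 fell in SUDHL-4 (9.02% of all entries did), and the replication factor GINS2 (1.53) and the origin recognition subunit ORC1 (0.97) were called, against 1.83% of all entries above 0. With 1 array left out the list had 0 to 12 calls, the 12 being without SUDHL-2 INK128 replicate 1. CENPP, a kinetochore protein, was at 1.49.

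Of the 337 entries, 9 were called in both lines in opposite directions (0.0866% of all tested), 7 of them with a symbol. MYB, a transcription factor of immature blood cells and of proliferation, had 1.54, 1.34 and 1.21 in SUDHL-2 INK128, against 0.81, 0.77 and 0.77 in SUDHL-2 DMSO. It had -0.40, -0.30 and -0.19 in SUDHL-4 INK128, against 0.70, 0.61 and 0.65 in SUDHL-4 DMSO. The DMSO arrays of both lines were thus close, and the INK128 arrays moved to either side. It rose by 0.58 (adjusted p = 0.0283) in SUDHL-2 and fell by 0.95 (adjusted p = 0.000379) in SUDHL-4, with a line difference of 1.52 ± 0.18 (adjusted p = 0.00143). TANGO2 (1.34), the dynein light chain DYNLRB1 (1.29, the same direction on all 4 of its probes) and SMCO4 (1.11) also rose in SUDHL-2 and fell in SUDHL-4. TNF, RNA5S9 (-2.11) and the pseudogene HNRNPA1P10 (-1.04) went the opposite way, down in SUDHL-2 and up in SUDHL-4. RNA5S9, a 5S ribosomal RNA gene, had -1.13, -1.47 and -1.65 in SUDHL-2 INK128, against 0.19, -0.31 and -0.15 in SUDHL-2 DMSO, and 0.25, 0.12 and -0.024 in SUDHL-4 INK128, against -0.57, -0.92 and -0.51 in SUDHL-4 DMSO. 5S genes lie in many near-identical copies, and HNRNPA1P10 resembles its parent gene, so their probes cannot be assigned to 1 locus.

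A further 5 entries were called in both lines in the same direction with a called difference in size, and their names were picked with the values in view. SNAR-A1, a small non-coding RNA of a multicopy family that binds a double-stranded RNA-binding protein, had the largest fall of all entries in SUDHL-2. It averaged -0.82 ± 0.27 in SUDHL-2 INK128 and 1.79 ± 0.33 in SUDHL-2 DMSO, and -1.27 ± 0.19 in SUDHL-4 INK128 and 0.10 ± 0.27 in SUDHL-4 DMSO (SD, n = 3 each). The fall was 2.60 in SUDHL-2 and 1.37 in SUDHL-4 (line difference -1.24, adjusted p = 0.0346). SYT17 (-1.17, detected on 2 of 3 SUDHL-4 DMSO arrays), ELL3 (-0.78) and SMIM14 (-0.78) rose in both lines and more in SUDHL-4, and HPS3 (0.87) rose in both and more in SUDHL-2.

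Among regulators of the mTOR pathway itself, 3 of 37 tested genes had a called difference, against 3.24% of all entries, and the median was 0.068. With 1 array left out the list had no call in 7 of 12 fits, and DDIT4 was called in 5, TSC1 in 4 and LAMTOR2 in 1. DDIT4, the stress-induced inhibitor of mTORC1 also known as REDD1, had -1.50, -1.19 and -1.23 in SUDHL-2 INK128, against -0.18, -0.28 and -0.14 in SUDHL-2 DMSO. It had 2.35, 2.41 and 2.15 in SUDHL-4 INK128, against 2.61, 2.67 and 2.41 in SUDHL-4 DMSO. It fell in SUDHL-2 by 1.11 (adjusted p = 0.00151), the value in SUDHL-4 was -0.26 (adjusted p = 0.228), and the line difference was -0.85 ± 0.20 (adjusted p = 0.0349). TSC1, the partner of TSC2 in the brake on mTORC1, was at 0.12 in SUDHL-2 and rose by 0.94 in SUDHL-4 (-0.82). LAMTOR2, part of the scaffold that brings mTORC1 to lysosomes, was at 0.72 in SUDHL-2 and -0.34 in SUDHL-4, neither past its own threshold (line difference 1.06, adjusted p = 0.0484).

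**Figure D3:**
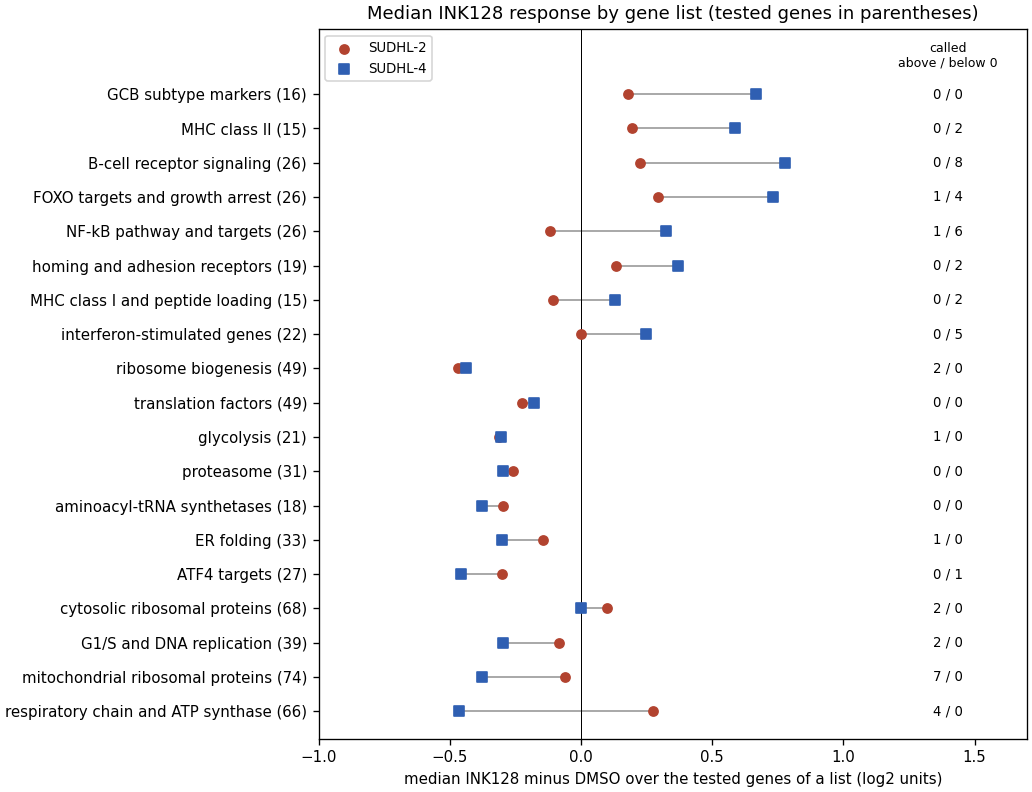
Median response to INK128 (INK128 minus DMSO, log2 units) over the tested genes of 19 lists, with SUDHL-2 as circles and SUDHL-4 as squares and the number of tested genes in parentheses. The right column gives the genes called with a line difference above and below 0; the lines stand farthest apart for respiratory chain subunits, and nearly together for ribosome biogenesis, translation factors, glycolysis and proteasome genes.

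Most lists tied to protein synthesis had medians below 0 in both lines. Their calls stand beside 3.24% of all entries called, a share at which lists of this size would hold few. Ribosome biogenesis genes had a median response of -0.47 in SUDHL-2 and -0.44 in SUDHL-4, with 2 of 49 called (NOP16 at 1.27 and NHP2 at 1.06), and 0 to 5 with 1 array left out. Translation factors had no call among 49 and medians of -0.23 in SUDHL-2 and -0.18 in SUDHL-4. Aminoacyl-tRNA synthetases (-0.30 in SUDHL-2, -0.38 in SUDHL-4, 18 genes) and proteasome subunits (-0.26 in SUDHL-2, -0.30 in SUDHL-4, 31 genes) also had none. ATF4 targets, the amino acid response genes, had medians of -0.30 in SUDHL-2 and -0.46 in SUDHL-4. DDIT4 was their called gene of 27. Among 33 genes of protein folding in the endoplasmic reticulum the called one was the signal peptidase subunit SPCS1 (0.89). Among 68 cytosolic ribosomal proteins they were RPS21 (1.66, adjusted p = 0.0455) and RPS26 (1.00), which fell in SUDHL-4. The median response of this list was not below 0, at 0.097 in SUDHL-2 and 0.00082 in SUDHL-4. In SUDHL-2, 1 of the 68 fell, and in SUDHL-4 9 fell and 1 rose, against 9.02% of all entries falling there. Its median line difference, 0.14, changed sign without SUDHL-2 DMSO replicate 1 (-0.074) or SUDHL-2 INK128 replicate 3 (-0.059). The sign also changed with array weights (-0.13) and with the mean-signal covariate (-0.054). The list had 0 to 3 calls above 0 with 1 array left out. EEF2, the elongation factor whose mRNA is a classic target of mTORC1, had the largest difference of its list, -1.10 with a 95% interval from -1.71 to -0.49, which missed the threshold (adjusted p = 0.0527).

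Other lists added single genes. They were UCK2 (1.20) and NME1 (0.88) of nucleotide synthesis, BID (0.83) of the BCL2 family and BPGM (0.82) of glycolysis. The others were ATP6V0E1 (1.01) of the lysosome, SC5D (-1.10) of cholesterol synthesis and CD82 (-0.89) of the adhesion receptors. Neither probe of CD82 was called by itself. Of 8 tested genes of the MYC network, 5 of plasma cell markers and 7 of the surrogate light chain and recombination, none was called.

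None of 11 genes named in the study, GAPDH among them, had a called line difference at the adjusted p of 0.05 in limma. The share over all entries was 3.24%, so the lack of a call among 11 genes says little about them. TCL1A, a co-activator of AKT, had 1.27, 1.45 and 2.22 in SUDHL-2 INK128, against 0.35, 0.73 and 0.63 in SUDHL-2 DMSO, and 3.62, 3.58 and 3.47 in SUDHL-4 INK128, against 1.62, 2.46 and 2.00 in SUDHL-4 DMSO. It rose by 1.08 in SUDHL-2 and by 1.53 in SUDHL-4, with a line difference of -0.45 (95% interval -1.18 to 0.28). TCL1B was at -0.073 (-0.54 to 0.40), CD27, a costimulatory receptor, at -0.39 (-0.91 to 0.12), and LYN, the kinase that starts receptor signaling, at -0.43 (-0.85 to -0.012, adjusted p = 0.24). Each of these 3 rose in both lines. CDC25A, the phosphatase that opens S phase, was at -0.55 in SUDHL-2 and fell by 1.26 in SUDHL-4, with the widest gap, 0.71 (0.22 to 1.19, adjusted p = 0.100). The methionyl-tRNA synthetase MARS1 (0.41, -0.065 to 0.89) and the immunophilin FKBP4 (0.14, -0.48 to 0.77) fell in both lines, and FKBP11 (0.36, -0.16 to 0.89) fell in SUDHL-4. CDC42 was at -0.11 (-0.66 to 0.44), YWHAZ at -0.091 (-0.62 to 0.43) and GAPDH at -0.16 (-0.86 to 0.54). A difference of 1 log2 unit in either direction lay outside the interval of 9 of the 11 genes, and inside that of CDC25A and TCL1A. CD27 in SUDHL-2 DMSO and TCL1B in SUDHL-4 DMSO were each detected on 1 of 3 arrays, so their responses there start from the floor.

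**Figure D4:**
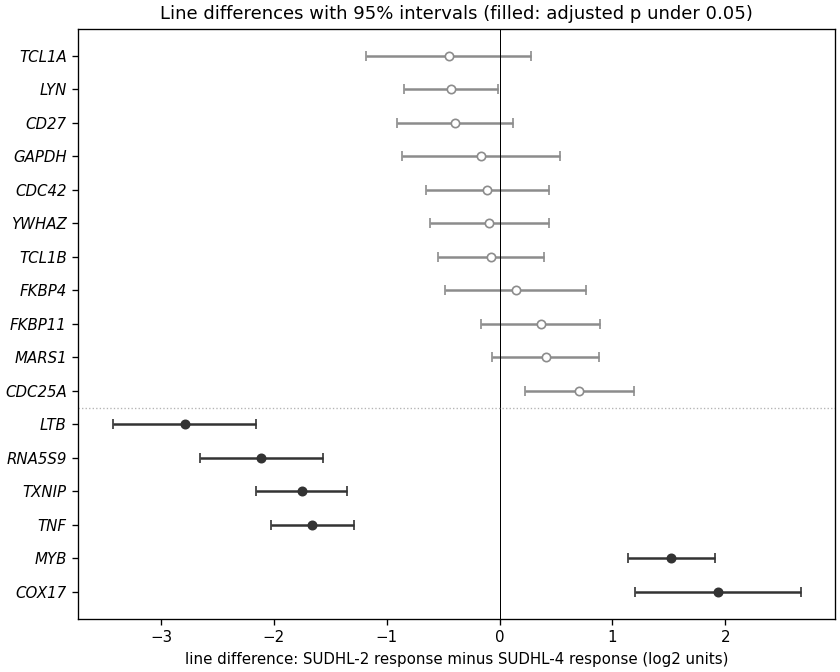
Line difference (SUDHL-2 response minus SUDHL-4 response, log2 units) with 95% intervals for the 11 genes named by the study, above the dotted line, and for 6 of the genes with called differences, below it. Filled points passed the adjusted p of 0.05; of the 11 open points, the intervals of CDC25A and LYN leave out 0 before adjustment and the others include it.

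The untreated difference between the lines was read on the water arrays of the other experiment, which share no array with the contrast. Of the 190 entries called above 0, 92 (48.4%) were lower in SUDHL-2 than in SUDHL-4 on water arrays, against 55.1% of all entries with a line difference above 0. Of the 147 called below 0, 59 (40.1%) were higher in SUDHL-2, against 49.0% of all entries below 0. In water, the SUDHL-2 minus SUDHL-4 difference was -0.89 for LTB, -4.27 for NCF1, -1.26 for TXNIP, -2.55 for PIK3IP1 and -2.70 for FOXO1, which rose with INK128 in the line that had more. It was 1.88 for HLA-B, 1.30 for IRF9 and 2.30 for PTPN6, which rose in the line that had less.

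With EtOH in place of INK128, with 2 SUDHL-2 EtOH arrays and 3 in each other group, 465 entries had a called line difference (4.48%). Of these, 26 were also among the 337 called for INK128, which is 7.72% of the INK128 calls and 5.59% of the EtOH calls, and 19 had the same sign. The line difference was 0.19 for LTB, 0.14 for COX17, -0.11 for MYB, 0.15 for RNA5S9 and -0.52 for TXNIP, none of them called. It was -1.38 for NCF1, -0.70 for IRF1 and 0.81 for TANGO2, each called (adjusted p of 0.0344, 0.0484 and 0.0321). Dose, time and control differ between the experiments, so the values stand side by side without a test.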

How the data were processed

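Polysomal RNA of SUDHL-2 and SUDHL-4 cells was measured on 1-colour bead arrays, 3 per group, and the 12 arrays of INK128 and DMSO enter the contrast. The authors deposited a non-normalized intensity and a detection p-value per probe and array, exported with GenomeStudio 1.9.0 per the submitters' processing notes. They also deposited a score table, in which each array's log signals were Z-scores, and which served as an alternative. Replicates are separate only by their number in the labels, so p-values measure the spread between these samples.

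Signals were floored at each array's lowest detected signal, log2 transformed, turned into Z-scores over the kept probes of each array and brought back to log2 units with the arrays' average SD, 1.97. Probes detected (p no more than 0.02) throughout the INK128 or the DMSO group of both lines were kept, and probes of a gene were averaged. The 4 groups were fitted together with limma 3.58.1 in R 4.3.3 (lmFit, eBayes), with Benjamini-Hochberg adjusted p-values over all entries and a threshold of 0.05. The scripts were tested on simulated data with known differences. The simulated noise was independent between entries, whereas the arrays share a large component within groups. That test therefore checks the code and gives no error rate for the calls here. Intervals are 95% intervals of the fit. The number of arrays limits the precision.

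The genes named are the 15 with the largest line difference in each direction among called genes, those called in opposite directions in the lines, called members of the gene lists, genes named in the study, and a few members of counted groups named after their values were seen. The members and lists were chosen with earlier results of these data known. Deviations of same-numbered INK128 and DMSO arrays correlated at 0.46, -0.21 and 0.25 in SUDHL-2 and at -0.27, 0.22 and 0.21 in SUDHL-4. These correlations cannot decide whether the replicate numbers paired the samples. The groups hold too few arrays for that, and much of the within-group variance lay on a single component. Alternatives were quantile normalization, median centring, normexp background correction (offset 16), no floor, other detection filters, Z-scores over all probes, the deposited scores, single probes, all 23 arrays in one fit, eBayes with trend and robust, array weights, replicate blocks and each array left out.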

Additional observations from a re-analysis of the deposited data

Results flagged for a closer look

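The results of this kind are line differences that passed the interaction test, so that the response to INK128 differed between SUDHL-2 and SUDHL-4. There were 337 such entries, and the named genes among them follow by size, all in log2 units and as SUDHL-2 response minus SUDHL-4 response.

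Above 0, the line difference was 1.93 for COX17, 1.92 for CCDC167, 1.897 for PHPT1, 1.82 for GNG5, 1.80 for ATOX1, 1.76 for GLRX, 1.68 for COA4, 1.66 for RPS21, 1.63 for MT1X, 1.53 for GINS2, 1.52 for MYB and 1.50 for CKS2. Next came values of 1.49 for POLR2L, 1.49 for CENPP, 1.48 for CKS1B, 1.47 for NDUFA3, 1.47 for HSPB1, 1.42 for POLR3K, 1.36 for CCL4L1, 1.34 for TANGO2, 1.29 for DYNLRB1, 1.27 for NOP16, 1.25 for COX7B and 1.23 for MRPL14. Smaller values were 1.21 for MRPL33, 1.20 for UCK2, 1.19 for UQCR10, 1.17 for MRPL55, 1.11 for SMCO4, 1.06 for LAMTOR2, 1.06 for NHP2, 1.05 for SOD2, 1.05 for PLEK, 1.01 for ATP6V0E1, 1.00 for RPS26 and 0.99 for MRPS17. The smallest were 0.97 for ORC1, 0.93 for MRPL52, 0.89 for SPCS1, 0.88 for NME1, 0.87 for HPS3, 0.87 for POLR3G, 0.85 for NDUFA6, 0.83 for BID, 0.83 for MRPL18, 0.82 for BPGM and 0.78 for MRPS21.

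Below 0, it was -2.79 for LTB, -2.11 for RNA5S9, -1.95 for FCGBP, -1.898 for AIM2, -1.84 for RNGTT, -1.84 for ISG20, -1.81 for NCF1, -1.75 for TXNIP, -1.74 for IRF9, -1.69 for HLA-B, -1.67 for SERPINI1 and -1.66 for IRF1. Then followed -1.66 for TNF, -1.65 for PLEKHA2, -1.62 for LPP, -1.37 for LTA, -1.37 for PTPN6, -1.31 for HLA-E, -1.29 for CD37, -1.25 for PIK3IP1, -1.24 for SNAR-A1, -1.20 for TRIM22, -1.19 for IL16 and -1.17 for SYT17. Nearer to 0 were -1.16 for FCRL2, -1.11 for CD72, -1.10 for SC5D, -1.10 for HLA-DRB3, -1.04 for HNRNPA1P10, -1.02 for FOXO1, -1.003 for SLAMF6, -0.98 for BTK, -0.95 for HLA-DOA, -0.93 for CD79B, -0.89 for CD82 and -0.88 for CD40. Nearest to 0 were -0.87 for GADD45B, -0.87 for IRF7, -0.85 for DDIT4, -0.82 for TSC1, -0.79 for CR2, -0.78 for ELL3 and -0.78 for SMIM14.

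Groups of 3 arrays are too small for a test of single outlying arrays, and none was made.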

How the results depend on the processing

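The count of 337 line differences stayed within 1.5 times under quantile normalization, normexp, no floor, the filter on all 12 arrays, Z-scores over all probes, the deposited scores, single probes and eBayes with trend and robust. It was 171 with median centring, where 65.5% of the calls lay above 0, against 56.4% with the Z-score and 44.2% with the shared replicate block, and the median of all entries shifted by 0.085. It was 594 with probes detected in full in at least 1 of the 4 groups. With all 23 arrays in one fit the counts were 1199 for the line difference, 1299 for the SUDHL-2 response and 2934 for the SUDHL-4 response. With mean signal as a covariate, chosen after seeing the data, they were 983, 869 and 3689. Array weights did not converge and gave 4582, 7638 and 5220. Why these counts moved was not tested.

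With a replicate block within each line the counts were 615 for the line difference and 588 for the SUDHL-2 response, and with a replicate block shared by both lines 120 and 160. Whether same-numbered arrays were paired is not known, so neither fit was preferred.

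Leaving out 1 array at a time gave 55 to 958 line differences, 75 to 952 called responses of SUDHL-2, and 1065 to 2542 of SUDHL-4. The line differences numbered 958 without SUDHL-2 INK128 replicate 1, 136 and 82 without SUDHL-2 DMSO replicates 1 and 3, 98, 84 and 154 without SUDHL-4 INK128 replicates 1, 2 and 3, and 107, 67 and 55 without SUDHL-4 DMSO replicates 1, 2 and 3. Of the 90 named genes with a call, 27 were called in all 12 of these fits. No called difference reversed under any setting run.

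Signs turned for genes without a call. CD27 was at 0.12 under normexp. CDC42 was at 0.18 with array weights and 0.0026 with the covariate, and YWHAZ at 0.018 with single probes. Over the fits without 1 array, CDC42 lay between -0.24 and 0.11, FKBP4 between -0.029 and 0.42, GAPDH between -0.42 and 0.13, and TCL1B between -0.24 and 0.046, each range set by SUDHL-2 INK128 replicates 1 and 3. YWHAZ lay between -0.25 and 0.064, set by SUDHL-2 DMSO replicates 1 and 3.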
